A study of Homo sapiens with 3 samples.

Results

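Interferon receptor subunits, JAK kinases, STAT and IRF transcription factors, SOCS inhibitors and interferon-induced genes were examined in unstressed HEK-293T cells, a human embryonic kidney line. The set held 47 genes, given as a list of gene symbols. All probe sets whose platform gene symbols include one of these genes were taken, which gave 99 probe sets. Of these, 97 are listed for 1 gene alone and measured 46 of the 47 genes. The array measured 19775 genes in all. STAT2 had no probe set listed for it in the annotation used here and was not analysed here. Following their roles, 21 genes were taken as signalling genes and 26 as induced genes.

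The RNA of 3 cultures was measured, with an Affymetrix U133 Plus 2.0 array for each. A low-seeded culture (375K cells) and a high-seeded culture (750K cells) were scraped off 48 h after seeding, and a further culture (1000K cells) after 24 h. Their RNA integrity numbers were 9.6 and 10 at 48 h and 9.5 at 24 h. All cultures grew in DMEM with serum, received no treatment, and carry the SV40 T-antigen gene that defines this transformed line. The 24 h culture also had the most cells seeded, so the effects of time, seeding and batch cannot be told apart. No interferon-treated culture was among the samples, and the labels do not say whether the cultures came from separate passages. The spread between arrays may therefore be technical, and it also holds differences between culture conditions.

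Interferons signal through pairs of receptor subunits. The type I receptor is made of IFNAR1 and IFNAR2 and works with the kinases JAK1 and TYK2, the interferon gamma receptor is made of IFNGR1 and IFNGR2 and works with JAK1 and JAK2, and the interferon lambda receptor is made of IFNLR1 and IL10RB. The kinases phosphorylate STAT factors. STAT2 joins IRF9 in the complex ISGF3, which binds the interferon-stimulated response element (ISRE) in the promoters of induced genes, many of which encode antiviral proteins.

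Each probe set has a linear MAS5 signal (intensity), scaled by the authors to the same trimmed mean on every array. Background was set from 302 probe sets whose genes belong to other tissues or encode olfactory and bitter taste receptors. Their 95th percentile was taken as the threshold of an array, and a probe set over it in each of the 3 cultures counted as above background. The threshold was 96.0 in the low-seeded 48 h, 124 in the high-seeded 48 h and 97.7 in the 24 h culture. A gene counted as above background through any probe set listed for it alone. Probe sets differ in how brightly they hybridize, so an order by signal is not read as an order of transcript levels between genes. Such an order served only to arrange figures and to choose which genes of other lists to name. Medians over lists are given only as ratios to the threshold. Between pairs of arrays the median absolute difference of log2 signals was 0.15 to 0.18 for probe sets above background. It was 0.94 to 1.01 for the others. Of 12 markers of HEK-293T cells and embryonic kidney 10 were above background, PAX2 and LHX1 being the exceptions. Of 14 measured leukocyte markers none was, with summed signals of 509 and 466 in the 48 h cultures and 538 in the 24 h culture, and of 10 fibroblast and endothelial markers only COL1A1 was. In RNA of whole cultures, fewer cells with a transcript and less of it per cell cannot be told apart.

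Of the 46 measured genes 22 (47.8%) were above background, against a background of 51.1% of all genes, so the set as a whole lay near the share of the array. Its parts differed in their counts. Of the signalling genes 13 of 20 (65.0%) were above background, and of the induced genes 9 of 26 (34.6%). The median signal of the brightest probe set was 2.36 times the mean threshold among signalling genes and 0.555 times among induced genes, against 1.46 times over all genes. On the log2 scale these medians were 1.24 for signalling genes, -0.86 for induced genes and 0.55 for all genes. They were 0.20 for signalling and -1.46 for induced genes with the mean over the probe sets of a gene, and 0.93 and -1.96 without probe sets marked _s_at or _x_at. By probe sets, 25 of 52 (48.1%) of the signalling genes and 15 of 45 (33.3%) of the induced genes were above background, against 44.3% of all probe sets listed for 1 gene. Genes with more probe sets have more chances to be called, and the signalling genes had 2.60 probe sets a gene, the induced genes 1.73 and all genes 2.08. Among genes with a single probe set, 4 of 7 signalling genes and 7 of 14 induced genes were above background, against 34.3% of all such genes. The contrast between signalling and induced genes was smaller there. Induced genes with a single probe set were also not under the share of all such genes, unlike the whole list of induced genes. The difference between signalling and induced genes was not tested, as genes are not replicates.

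**Figure D1:**
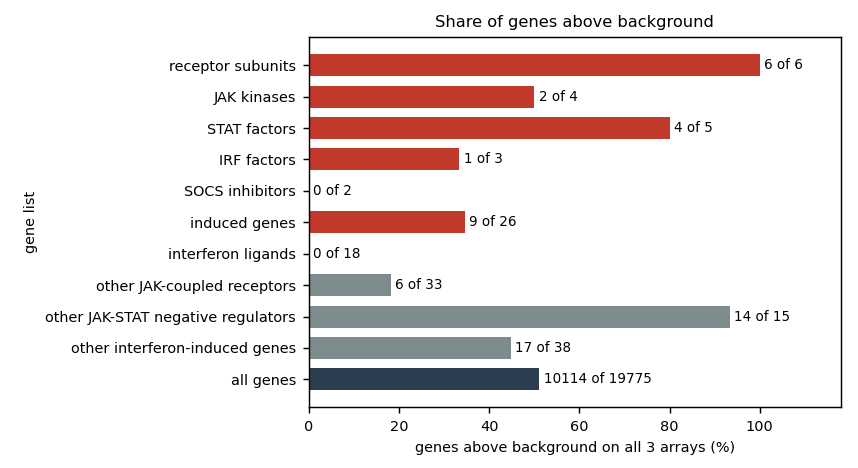
Share of genes above background on all 3 arrays, in percent, for the roles among the 47 genes (red), for other lists of the pathway (grey) and for all genes (dark), with the counts beside the bars. The receptor subunits lie at 6 of 6, the induced genes at 9 of 26 and the interferon ligands at 0 of 18.

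All 6 receptor subunits were above background. IFNGR1, the ligand-binding subunit for interferon gamma, gave 3141 and 3489 in the low- and high-seeded 48 h cultures and 3142 in the 24 h culture on its brightest probe set. Its partner IFNGR2 gave 2797 and 2904 in the 48 h cultures and 3225 in the 24 h culture on its single probe set. Both lay far above the thresholds on each array, at 30.7 times the mean threshold for IFNGR1 and 28.1 times for IFNGR2. Another probe set of IFNGR1 gave 2339 and 2242 at 48 h and 2318 at 24 h, while the third stayed under the threshold with 57.0 to 74.3. Both probe sets above background are marked _s_at, so the call of IFNGR1 was lost without probe sets of the kinds _s_at and _x_at. All 4 probe sets of IFNAR1 exceeded the thresholds, the brightest giving 604 and 641 in the 48 h cultures and 616 in the 24 h culture. IFNAR2 was above background on all 3, the brightest giving 1468 and 1573 at 48 h and 1366 at 24 h. The brightest probe sets had an SD of 19.1 for IFNAR1 and 103 for IFNAR2 (n = 3 arrays), while others spread more widely, 1 of IFNAR1 giving 144 and 229 at 48 h and 174 at 24 h and 1 of IFNAR2 giving 408 and 305 at 48 h and 336 at 24 h. IL10RB, which also serves the interleukin-10 receptor, gave 516 and 370.3 in the 48 h cultures and 573 in the 24 h culture. IFNLR1, the subunit that confines the lambda response to certain cell types, gave 179 and 295 at 48 h and 260.5 at 24 h on 1 probe set and 14.2 to 38.2 on the other. The brighter probe set lay at 2.31 times the mean threshold, and IFNLR1 was not above background with the 99th percentile as threshold.

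The genes of IFNAR2, IL10RB, IFNAR1 and IFNGR2 follow each other on chromosome 21 with no other protein-coding gene between them in the GRCh38.p14 annotation, and all 4 were above background. STAT5B, STAT5A and STAT3 are likewise neighbours on chromosome 17, and there the calls were mixed.

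Of the 4 JAK kinases JAK1 and TYK2 were above background, and JAK2 and JAK3 were not. JAK1, which serves all interferon receptors, gave 2332 and 2278 in the 48 h cultures and 2279 in the 24 h culture on its brightest probe set, with an SD of 30.8. It was above background on 3 of 5 probe sets, and the others stayed between 7.60 and 62.1. TYK2, the partner of JAK1 at the type I receptor, gave 389.9 and 516 at 48 h and 572 at 24 h on its single probe set. That probe set is marked _s_at, so TYK2 was not measured without probe sets of the kinds _s_at and _x_at. JAK2, which works at the interferon gamma receptor and at many hormone and cytokine receptors, gave 79.1 and 100.1 in the 48 h cultures and 93.6 in the 24 h culture on its brightest probe set, which lies under the threshold of every array. This is 0.858 times the mean threshold, and JAK2 was above background when the 90th percentile was used. JAK3, the kinase of lymphocyte cytokine receptors, exceeded the threshold on 2 arrays with 1 of its 4 probe sets, which gave 53.1 and 135 at 48 h and 105 at 24 h. Its other probe sets had signals from 1.95 to 76.0.

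STAT3, STAT4, STAT5B and STAT6 were above background and STAT5A was not. STAT3, which acts behind the interleukin-6 family of cytokines and others, was above background on 3 of 4 probe sets, the brightest giving 1501 and 1330 in the 48 h cultures and 1337 in the 24 h culture. STAT5B, which responds to growth hormone, was above background on 3 of 5, with 591 and 665 at 48 h and 725 at 24 h on the brightest. STAT5A, its close paralog and neighbour, gave 13.1 and 22.9 at 48 h and 65.5 at 24 h on its single probe set, all under the thresholds. STAT6, the factor of interleukin-4 signalling, gave 294 and 245 at 48 h and 229.9 at 24 h on 1 probe set and 17.0 to 80.9 on the other. Both are marked _s_at, so STAT6 was likewise not measured without such probe sets. STAT4, known from interleukin-12 signalling in lymphocytes, gave 135 and 136 at 48 h and 106 at 24 h. This is 1.19 times the mean threshold, and the call was lost with the 99th percentile.

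Among the IRF factors IRF1 alone was above background, with 136 and 129 in the 48 h cultures and 198 in the 24 h culture on 1 of 2 probe sets. Its call was lost with the 99th percentile. IRF1 is both an activator of interferon responses and itself induced by interferon gamma. IRF9, the DNA-binding partner of STAT2, gave 186 and 104 at 48 h and 316 at 24 h, and missed the call on the high-seeded 48 h array only. A further probe set is listed for IRF9 and its neighbour RNF31 together and gave 177 and 108 at 48 h and 226 at 24 h, in the same order of cultures, but its signal cannot be divided between these genes. IRF2, which competes with IRF1 for the same DNA element, stayed under the thresholds with 44.2 and 67.1 at 48 h and 75.4 at 24 h.

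Neither SOCS1 nor SOCS3, feedback inhibitors that are induced by the pathway they restrain, was above background. The brightest of 4 probe sets of SOCS1 gave 139.7 and 109.8 in the 48 h cultures and 106 in the 24 h culture and exceeded the threshold on 2 arrays. All 4 probe sets of SOCS3 stayed under the thresholds, with signals from 3.63 to 61.8. When IRF1, IRF9, SOCS1 and SOCS3, which interferons also induce, were counted as induced genes, 12 of 16 signalling genes and 10 of 30 induced genes were above background.

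**Figure D2:**
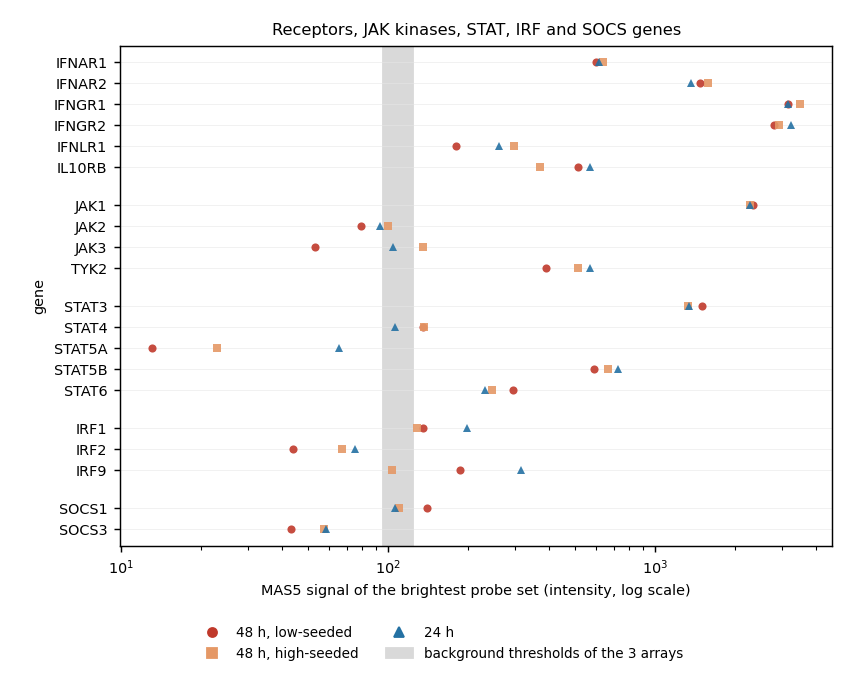
MAS5 signals of the brightest probe set of each measured signalling gene (horizontal axis, intensity, log scale), with a symbol for each culture and the grey band spanning the thresholds of the 3 arrays, from 96.0 to 124. The receptor subunits lie right of the band, and JAK2, STAT5A, IRF2 and SOCS3 have no symbol beyond it.

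Of the 26 induced genes 9 were above background, with ratios to the mean threshold from 1.90 to 46.5. ADAR, an enzyme that edits adenosine in double-stranded RNA and has a constitutive and an interferon-inducible form, gave 5094 and 5098 in the 48 h cultures and 4603 in the 24 h culture, at 46.5 times the mean threshold. EIF2AK2, the kinase PKR that halts translation on double-stranded RNA, gave 1374 and 1413 at 48 h and 1363 at 24 h and was above background on all 3 probe sets. SAMHD1, an enzyme that degrades deoxynucleotides, was above background on 5 of 6 probe sets, the brightest giving 1543 and 1658 at 48 h and 1969 at 24 h. The brightest probe sets lay at 13.0 times the mean threshold for EIF2AK2 and 16.3 times for SAMHD1. USP18, which removes ISG15 from proteins and binds IFNAR2 as an inhibitor, gave 897 and 931 at 48 h and 725 at 24 h on its single probe set. A near-identical copy of USP18 is annotated as the pseudogene USP41P. Whether its transcripts add to this signal was not tested.

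The membrane proteins IFITM1, IFITM2 and IFITM3, which block virus entry, were all above background and are neighbours on chromosome 11. IFITM2 gave 1045 and 1116 in the 48 h cultures and 1104 in the 24 h culture. IFITM1 gave 279 and 301 at 48 h and 379.9 at 24 h, and IFITM3 379 and 292 at 48 h and 242 at 24 h. A probe set listed for IFITM1 and IFITM2 together gave 129.9 and 277 at 48 h and 181 at 24 h. The order of the cultures was not the same for IFITM1 and IFITM3. These genes are close paralogs, and each is measured only by a probe set of the kinds marked _s_at or _x_at, which can match more than 1 transcript or cross-hybridize.

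ISG15, the ubiquitin-like modifier of the interferon response, and IFIT1, which binds RNA lacking cap methylation, were above background. ISG15 gave 221 and 188 in the 48 h cultures and 196 in the 24 h culture, at 1.90 times the mean threshold. IFIT1 gave 223 and 275 at 48 h and 165 at 24 h, at 2.09 times, and its call was lost with the 99th percentile. Of its gene family, IFIT2 and IFIT3 lie near IFIT1 on chromosome 10 and were under the thresholds. They gave 1.52 to 45.9 over both probe sets of IFIT2 and 11.2 to 88.0 over both of IFIT3. IFIT5, of the same family and on the list of other interferon-induced genes, was above background on 2 of 2 probe sets. Its brightest gave 609 and 696 at 48 h and 751 at 24 h.

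The other 17 induced genes were not above background, and 14 of them stayed under the threshold on every array with all their probe sets. These 14 genes had 25 probe sets with signals from 1.52 to 93.8 and a median of 20.4. Among them were MX1 and MX2, dynamin-like proteins that restrict viruses. MX1 gave 4.88 and 11.1 in the 48 h cultures and 41.7 in the 24 h culture, and MX2 5.45 and 11.5 at 48 h and 42.4 at 24 h. At such signals arrays differ widely, and no order of cultures is read from them. The OAS synthetases, which activate RNA decay, gave 0 of 3 genes above background in the cluster of OAS1, OAS3 and OAS2 on chromosome 12, with signals from 3.84 to 92.4. BST2, or tetherin, which holds budding virus at the cell surface, gave 7.89 and 15.1 at 48 h and 13.6 at 24 h. RSAD2, the antiviral enzyme viperin, had signals from 3.79 to 42.1. IFI27, a mitochondrial protein widely used as a marker of interferon exposure, gave 16.1 and 20.4 at 48 h and 30.2 at 24 h. IFI44L and its neighbour IFI44 gave 3.63 to 50.8, and XAF1, a pro-apoptotic factor, 2.89 to 93.8. The nuclease ISG20 gave 5.65 to 77.7.

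The remaining 3 genes exceeded the threshold on some arrays. IFI6, a membrane protein with an antiviral role, gave 148 and 109.7 in the 48 h cultures and 157 in the 24 h culture, and missed the call on the high-seeded 48 h array only. OASL, an OAS-like protein without synthetase activity, gave 135 and 145 at 48 h and 51.7 at 24 h on the brighter of its probe sets, and missed it on the 24 h array only. IFI35 gave 127 and 77.2 at 48 h and 96.6 at 24 h and exceeded the threshold on the low-seeded 48 h array only.

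**Figure D3:**
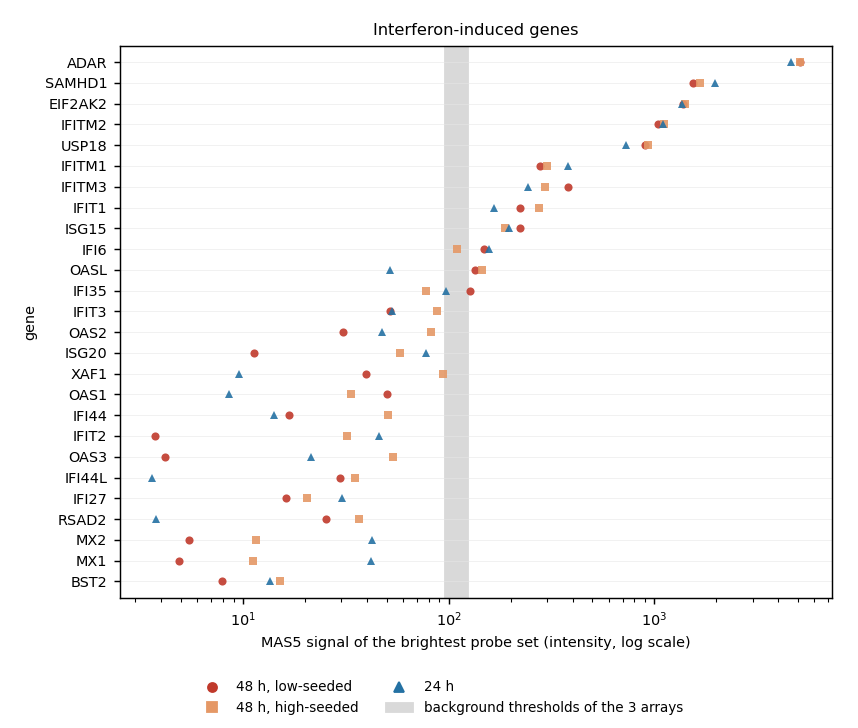
MAS5 signals of the brightest probe set of each of the 26 induced genes (horizontal axis, intensity, log scale), ordered by mean signal, with a symbol for each culture and the grey band spanning the thresholds from 96.0 to 124. The 9 genes from ADAR to ISG15 lie right of the band with all symbols, IFI6, OASL and IFI35 have symbols on or around it, and 14 genes lie left of it.

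Of the 25 genes with more than 1 probe set 3 were above background on all of them, 14 on none and 8 on some. The 8 genes with mixed calls were IFNGR1, IFNLR1, JAK1, STAT3, STAT5B, STAT6, IRF1 and SAMHD1. When most probe sets of a gene had to be above background, IFNLR1, STAT6 and IRF1 were lost and 19 of 46 genes were called. Of the 9 induced genes above background, IFITM1, IFITM2, IFITM3, ISG15 and ADAR were measured only by probe sets marked _s_at or _x_at. Without such probe sets 10 of 17 signalling genes and 4 of 20 induced genes were above background, the 4 being IFIT1, EIF2AK2, USP18 and SAMHD1. The matching share of all genes was not computed, so these counts are not set against the array. The high-seeded 48 h array had the highest threshold, and without it IRF9, SOCS1 and IFI6 were also above background, giving 15 signalling and 10 induced genes.

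The windows of 300 bases around the annotated start of transcription (250 before and 50 after, RefSeq, GRCh38.p14) were searched for the core letters of the ISRE. They are shown for genes that lie on both sides of the threshold although they carry these letters. The letters searched were GAAA followed, after any 2 bases, by another GAAA, or the reverse complement of this pattern. Matches were allowed to overlap, and in the windows below, written 5′ to 3′ on the strand of the gene, the capitals mark them.
ISG15, chr1:1013247-1013546, plus strand: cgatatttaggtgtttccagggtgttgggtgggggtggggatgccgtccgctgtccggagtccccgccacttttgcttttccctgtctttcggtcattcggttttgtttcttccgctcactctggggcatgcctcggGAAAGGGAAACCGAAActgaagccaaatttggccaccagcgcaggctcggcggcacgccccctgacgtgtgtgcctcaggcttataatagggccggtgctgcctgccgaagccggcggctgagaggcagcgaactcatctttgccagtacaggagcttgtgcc
IFIT1, chr10:89392373-89392672, plus strand: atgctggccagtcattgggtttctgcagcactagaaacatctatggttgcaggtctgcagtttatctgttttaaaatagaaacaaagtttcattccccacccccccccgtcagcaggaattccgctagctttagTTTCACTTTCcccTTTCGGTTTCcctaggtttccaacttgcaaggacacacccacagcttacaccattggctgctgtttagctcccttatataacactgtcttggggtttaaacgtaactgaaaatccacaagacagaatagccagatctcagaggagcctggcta
IFIT3, chr10:89332279-89332578, plus strand: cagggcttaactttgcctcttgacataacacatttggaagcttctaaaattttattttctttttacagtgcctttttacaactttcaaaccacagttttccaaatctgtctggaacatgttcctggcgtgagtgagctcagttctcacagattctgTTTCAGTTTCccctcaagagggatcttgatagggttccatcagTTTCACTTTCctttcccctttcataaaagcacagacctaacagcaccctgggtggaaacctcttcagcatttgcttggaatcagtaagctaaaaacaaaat
MX1, chr21:41420308-41420607, plus strand: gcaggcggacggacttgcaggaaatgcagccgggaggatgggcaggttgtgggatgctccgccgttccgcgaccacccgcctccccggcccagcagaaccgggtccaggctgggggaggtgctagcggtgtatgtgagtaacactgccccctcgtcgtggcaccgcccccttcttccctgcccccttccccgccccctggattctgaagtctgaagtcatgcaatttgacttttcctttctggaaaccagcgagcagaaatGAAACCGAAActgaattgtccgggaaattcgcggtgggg
EIF2AK2, chr2:37156931-37157230, minus strand: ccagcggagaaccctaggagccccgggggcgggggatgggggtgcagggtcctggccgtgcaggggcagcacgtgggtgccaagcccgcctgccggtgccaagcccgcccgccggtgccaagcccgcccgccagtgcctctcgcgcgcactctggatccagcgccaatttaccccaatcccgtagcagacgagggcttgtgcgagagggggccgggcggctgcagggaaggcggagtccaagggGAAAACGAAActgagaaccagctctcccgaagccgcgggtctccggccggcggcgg

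Of the 47 genes 39 had a window in the table. The genes with no window were IFNAR2, IRF2, OAS2, IFITM2, IFIT2, OASL, USP18 and MX2. The ISRE letters were found in 15 of 20 induced genes (75.0%) and in 1 of 19 signalling genes, SOCS1, against 4.38% of the 27305 genes with a window and 3.57% of all 35116 windows. They were found in 5 of 7 induced genes above background and in 10 of 13 that were not, so this pattern did not separate these few genes by basal signal. OAS1, IFI35 and XAF1, not above background, had no match, but their windows hold GAAA, 1 base and again GAAA. That spacing was not searched, so its share among these or all genes is not given, and the counts hold for the 2-base spacing only. ISG15 and IFIT1, above background, and MX1 and IFIT3, under the thresholds on every array, all carry the letters searched. EIF2AK2 has a single match, at -6 from the start, in a window next to signals of 1363 to 1413. The windows of ADAR and SAMHD1, above background, held no match. The letters TTCNNNGAA of the gamma-activated site (GAS), the same on both strands, were found in 6 of 20 induced and 4 of 19 signalling genes, against 9.38% of all genes with a window. Counting each site in the genome once, 4 of 11 GAS matches in windows of these genes overlapped an ISRE match. A match describes letters only and does not show binding.

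**Figure D4:**
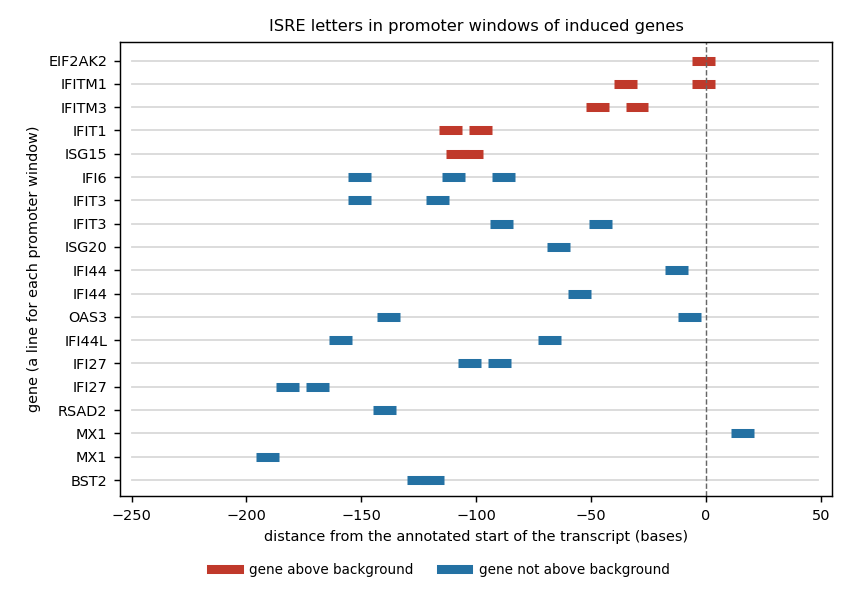
Positions of the ISRE letters in the promoter windows of the 15 induced genes that carry them, as distance in bases from the annotated start (dashed line), with a line for each window and genes ordered by mean signal. Matches of genes above background (red) and not above background (blue) lie over overlapping ranges of distance.

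The 48 h cultures were set against the 24 h culture, which differed from them in both time and seeding. None of the 43 tested probe sets of 25 genes passed the test (limma, adjusted p under 0.05 over all tested probe sets), against a background of 0.314% called among 22621 tested probe sets (0.0752% higher and 0.239% lower in the 48 h cultures). At an unadjusted p under 0.05 there were 4 of 43, where 9.38% of all tested probe sets reached it. The median log2 difference, 48 h minus 24 h, was 0.03 over the 43 probe sets, 0.02 over the 27 of signalling genes and 0.04 over the 16 of induced genes, and also close to 0 over all tested probe sets. Signals of both 48 h cultures lay above that of the 24 h culture for 15 probe sets and below it for 13, where 35.4% and 35.1% of all tested probe sets did so. With 2 arrays against 1, each probe set has 1 residual degree of freedom, from the 48 h pair. This pair was low- and high-seeded, so any effect of seeding between them enters this spread, and variation with density was not tested. The spread is moderated by limma with a trend over all tested probe sets, and the 24 h culture is assumed to share it.

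The difference of largest size was that of IRF9, with 186 and 104 in the 48 h cultures and 316 in the 24 h culture, a log2 difference of -1.07 (SE 0.41, limma, adjusted p = 0.386). It was -1.44 without the low-seeded and -0.70 without the high-seeded 48 h array. Both 48 h signals were below that of the 24 h culture, but they also differed from each other. A probe set of STAT5B gave 255 and 369 at 48 h and 480.0 at 24 h, with a log2 difference of -0.61 (SE 0.29, adjusted p = 0.527), and 1 of STAT3 gave 828 and 839 against 1099, with -0.39 (SE 0.16, adjusted p = 0.445). The brightest probe set of SAMHD1 had -0.30 (SE 0.13, adjusted p = 0.466), while another of its probe sets gave 1276 and 1056 at 48 h and 1003 at 24 h. The brightest probe set of STAT3 gave 1330 to 1501 in the 48 h cultures and 1337 in the 24 h culture, so the probe sets of STAT3 and those of SAMHD1 did not share an order of cultures.

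On the other side, IFIT1 had a log2 difference of 0.53 (SE 0.35, adjusted p = 0.697) and USP18 of 0.33 (SE 0.17, adjusted p = 0.587). The induced genes tested had 10 of 16 probe sets with higher and 6 with lower mean log2 signals in the 48 h cultures, and ranged from -0.37 to 0.53. That none passed does not show that the cultures were alike.

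**Figure D5:**
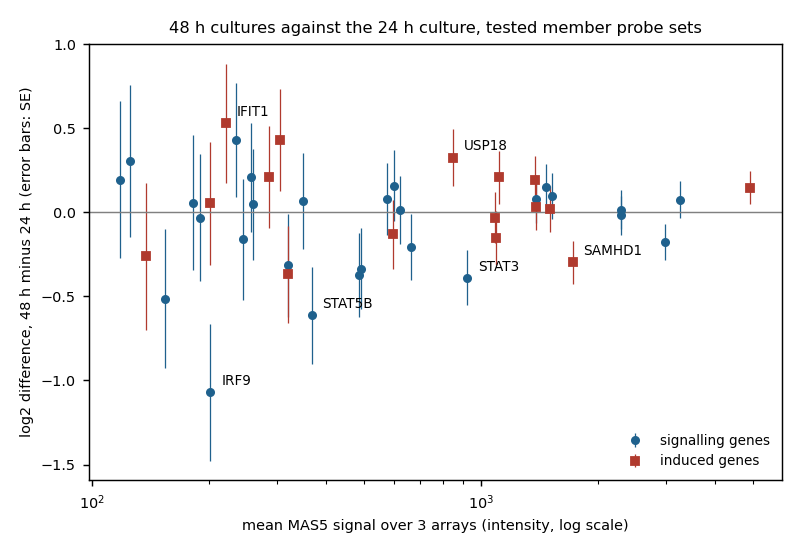
Log2 difference of the 48 h cultures minus the 24 h culture (vertical axis, points with standard errors from limma) against the mean MAS5 signal (intensity, log scale) for the 43 tested probe sets of signalling genes (blue) and induced genes (red). The points run from -1.07 for IRF9 to 0.53 for IFIT1, and standard errors are larger at low signals.

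Other genes of the pathway, listed by role, were read in the same way. Beside them stand 51.1% of all genes above background, and 34.3% of all genes with a single probe set. Of the interferon genes themselves, each with a single probe set, 0 of 18 were above background. IFNB1 gave 10.2 and 12.9 in the 48 h cultures and 19.4 in the 24 h culture. Of 33 measured genes in a list of other receptors coupled to JAK kinases, which also held the ligand TSLP, 6 were above background (18.2%), among them IL6ST, the shared subunit of the interleukin-6 family, with 1586 and 1497 at 48 h and 1658 at 24 h. IL13RA1 gave 1116 and 962 at 48 h and 1297 at 24 h, and CRLF2 and IL3RA, receptors of blood cells, had mean signals of 9.31 and 13.4. Of 15 further genes listed as negative regulators 14 were above background, among them the phosphatase PTPN11, with 9590 and 10272 at 48 h and 10580 at 24 h, and PTPN2, a phosphatase of JAK and STAT proteins, with 1870 and 1852 at 48 h and 1852 at 24 h. All SOCS genes of that list, SOCS2, SOCS4, SOCS5, SOCS6 and SOCS7, were above background, unlike SOCS1 and SOCS3. That list also held UBE2L6, an enzyme of ISG15 conjugation, with 169.7 and 214 at 48 h and 187 at 24 h.

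Of 38 other interferon-induced genes 17 (44.7%) were above background, near the 51.1% of all genes, with a median ratio to the threshold of -0.06 on the log2 scale. PNPT1, a mitochondrial RNA exonuclease, gave 4512 and 4582 in the 48 h cultures and 3883 in the 24 h culture, and the scramblase PLSCR1 3006 and 2728 at 48 h and 2922 at 24 h. The zinc finger antiviral protein ZC3HAV1 gave 2997 and 3189 at 48 h and 2235 at 24 h. The chemokine genes CXCL10 and CXCL11 stayed under the thresholds, CXCL10 with 7.02 and 11.5 at 48 h and 27.7 at 24 h.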

How the data were processed

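Biotin-labelled RNA of 3 HEK-293T cultures was read on 1-colour arrays. What the authors deposited is the MAS5 signal, a linear intensity for each probe set, for which the submitters' processing notes name GCOS 1.0. Without the outer 2% at each end, signals averaged 500.1 on every array. Absent/present calls were not used here. No arrays held identical values, and their number limits the precision.

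Genes were assigned by the platform annotation, and symbols were updated through gene IDs to GRCh38.p14. A single gene is given for 41097 probe sets, more than 1 gene for 1801 and no gene for 11777. The 302 probe sets that set the thresholds measure 204 genes, 127 of the probe sets being those of olfactory and bitter taste receptors, and 4 of the 302 were themselves above background. Thresholds, calls and medians were computed in Python 3.11.15. The 48 h and 24 h cultures were compared with limma 3.58.1 (lmFit and eBayes with a mean-variance trend) on log2 signals after adding 20.4, the median signal of those 302 probe sets, over probe sets with a mean log2 signal above the mean threshold, with Benjamini-Hochberg adjustment over all of them. The addition makes differences between low signals smaller. Both steps were also run on simulated data. In the limma run the simulated 24 h array was given the spread of the 48 h pair. That run therefore could not check whether the real 24 h culture shares this spread. All measured genes of the set are named, and of other lists IFIT5, the SOCS genes and genes with the highest and lowest ratios to the threshold. The members and lists were chosen with earlier results of these data known. Alternatives were other percentiles, another reference, fewer arrays, other sets of probe sets, quantile and median scaling, another added value, no filter, no trend and each array left out.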

Additional observations from a re-analysis of the deposited data

How the results depend on the processing

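The counts of genes above background stayed within 1.5 times under other percentiles, the receptor genes alone as reference, 2 arrays sufficing, quantile normalization, probe sets of several genes and most probe sets of a gene, with 18 to 27 of 46 genes. Shares of all genes above background were computed in the main setting only. Leaving out an array gave 23 to 25 genes, 13 to 15 signalling genes, 9 to 10 induced genes and 41 to 43 probe sets. A call then needed 2 arrays in place of 3, so these counts could only stay or rise and do not show stability. Without probe sets marked _s_at or _x_at, which leaves fewer probe sets, 14 genes, 4 induced genes and 24 probe sets were above background, against 22, 9 and 40, and the median log2 ratios to the threshold were 0.93 for signalling and -1.96 for induced genes. With the mean over all probe sets of a gene in place of the brightest these medians were 0.20 and -1.46, and leaving out an array gave 1.199 to 1.404 and -0.71 to -0.68. Between the 48 h and 24 h cultures 71 probe sets were called in all (17 higher and 54 lower at 48 h), against 12 after scaling to equal medians (6 higher and 6 lower) and 0 without the mean-variance trend (1363 at an unadjusted p under 0.05), and the cause was not tested. No probe set of the genes examined passed in any of these settings, the lowest adjusted p being 0.361 to 0.76 over them. Leaving out a 48 h array leaves no residual degrees of freedom, so no count was made. Over all alternatives, 475 calls of single genes against the background threshold stayed as they were, 8 were lost and 14 gained. These counts leave out 9 genes where probe sets marked _s_at or _x_at were dropped, as no probe set of them remained. Of these, ADAR, IFITM1, IFITM2, IFITM3, ISG15, TYK2 and STAT6 were above background with all probe sets. A lower percentile, 2 arrays sufficing, an array left out and probe sets of several genes could only add calls. A higher percentile, most probe sets of a gene and dropping probe sets marked _s_at or _x_at could only remove calls. Many of the unchanged calls were therefore fixed in advance. The 48 log2 differences of the probe sets named with a test kept their sign. No paired analysis was possible because the labels give no replicate numbers. Low signals limit every call near the threshold.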
